A study of Mus musculus with 12 samples.

Results

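Transcript levels of 8 genes known from pluripotent cells were described in adult mouse spermatogonia: Lin28a, Lin28b, Pou5f1 (which encodes OCT4), Sox2, Nanog, Utf1, Tcl1 and Dppa4. Every probe on the array whose gene name was that of a member was taken, which gave 12 probes among 55681 and 8 genes among 36315. GFRα1+ spermatogonia were sorted as the GFP+ cells of GFRα1-EGFP knock-in mice, in which the reporter sits in the gene for the GDNF co-receptor. NGN3+ spermatogonia were the GFP+/KIT- cells and KIT+ spermatogonia the GFP+/KIT+ cells of Ngn3-EGFP transgenic mice, where GFP outlasts Ngn3 transcription, so that the KIT+ gate held descendants of cells that had expressed Ngn3. Whole testes came from wild-type littermates of the knock-in line. All mice were C57BL/6 and 10-11 weeks old, and none had been treated. Each group had 3 arrays, a GFRα1+ or KIT+ sample came from 1 mouse and an NGN3+ sample from 2 pooled mice.

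GFRα1+ cells make up most of the stem cell pool of the undisturbed testis, NGN3+ cells are their progeny and can return to the stem cell state, and KIT+ cells have entered differentiation. In embryonic stem cells, OCT4, SOX2 and NANOG bind together at their own and each other's regulatory DNA and hold the cells in an undifferentiated state. LIN28A and LIN28B are RNA-binding proteins that block the maturation of let-7 miRNAs, UTF1 and DPPA4 are chromatin-associated proteins, and TCL1 binds AKT kinases and raises their activity. In the postnatal testis several of these genes are known from undifferentiated spermatogonia, although spermatogonia are not pluripotent cells.

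Levels are given as log2 of the processed signal relative to the array's 75th percentile, so a level of 0 is the 75th percentile and 1 unit is a doubling. Levels of different probes are not comparable with each other. Between 50.1% and 65.1% of the probes on an array were well above background, no spot was saturated, and the 3 arrays per group limit the precision. Two-sided tests were made with limma across all genes, and a gene was called at an adjusted p under 0.05. The arrays lay on 3 slides, with GFRα1+ replicates 1 and 2 and whole testes replicate 1 on the first, GFRα1+ replicate 3 and all NGN3+ and KIT+ arrays on the second, and whole testes replicates 2 and 3 on the third. The sorted groups carried their sort markers: Gfra1 averaged 1.65 ± 0.16 in GFRα1+, −1.22 ± 0.23 in NGN3+ and −3.38 ± 0.05 in KIT+ cells, Neurog3, which encodes NGN3, 4.13 ± 0.21, 5.23 ± 0.43 and 2.77 ± 0.17, and Kit 1.5 ± 0.12, 1.96 ± 0.58 and 4.55 ± 0.11 in the same order (SD, n = 3 each). Neurog3 RNA was thus well above background in GFRα1+ cells too. RNA of spermatids was not equal between the fractions. NGN3+ cells exceeded GFRα1+ cells for all 24 spermatid markers examined, and the summed linear level, relative to the 75th percentile, ran from 1545 to 1972 in NGN3+ and from 1881 to 2455 in KIT+ cells, against 46.9 to 87.2 in GFRα1+ cells and 7591 to 9182 in whole testes. Of 18 Sertoli cell markers tested, 14 were higher and 0 lower in NGN3+ cells, with summed levels of 50.1 to 67.8 in NGN3+ and 24.1 to 40.6 in GFRα1+ cells. Of 8 peritubular myoid markers 7 were higher and 1 lower, with sums of 13.3 to 21.4 in NGN3+ and 1.81 to 1.98 in GFRα1+ cells. Other lists had higher sums in GFRα1+ cells. Endothelial markers summed to 5.76 to 10.0 in NGN3+ and 10.5 to 16.2 in GFRα1+ cells (of 7 tested, 1 higher and 2 lower). Leydig markers summed to 3.49 to 4.93 and 6.40 to 11.2 (of 3, 1 higher and 1 lower). Macrophage and leukocyte sums overlapped, at 11.05 to 16.03 and 15.69 to 19.7 (of 6, 3 higher and 1 lower). Of 2 red blood cell markers 1 was higher and 0 lower. The protamine genes Prm1 and Prm2 are in the spermatid list, and all 24 of its genes were well above background on every NGN3+ and KIT+ array, while 21 of them were on every GFRα1+ array. The part of this other RNA in the differences below was not tested.

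Of the 8 genes, 7 were well above background on every array and were tested in every comparison, and Sox2 was on none. The 7 fell into 4 patterns across the fractions. Tcl1 and Dppa4 were highest in GFRα1+ cells and lower at each step. Pou5f1 and Utf1 had their highest means in NGN3+ cells and were called higher there than in GFRα1+ cells, a call that Pou5f1 lost with slide as a block. Lin28a and Nanog were lower in KIT+ cells than in either other fraction, and were not called between NGN3+ and GFRα1+ cells, although Lin28a was under 3 alternatives. The mean of Lin28a was also highest in NGN3+ cells, at 5.11 against 4.69 in GFRα1+ cells. Lin28b alone was highest in KIT+ cells, but its call over GFRα1+ cells (log2 ratio 0.31) was lost under 7 alternatives. Its second probe was not called in that comparison. In bulk samples of this kind, fewer cells with a transcript and less of it per cell cannot be told apart.

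**Figure D1:**
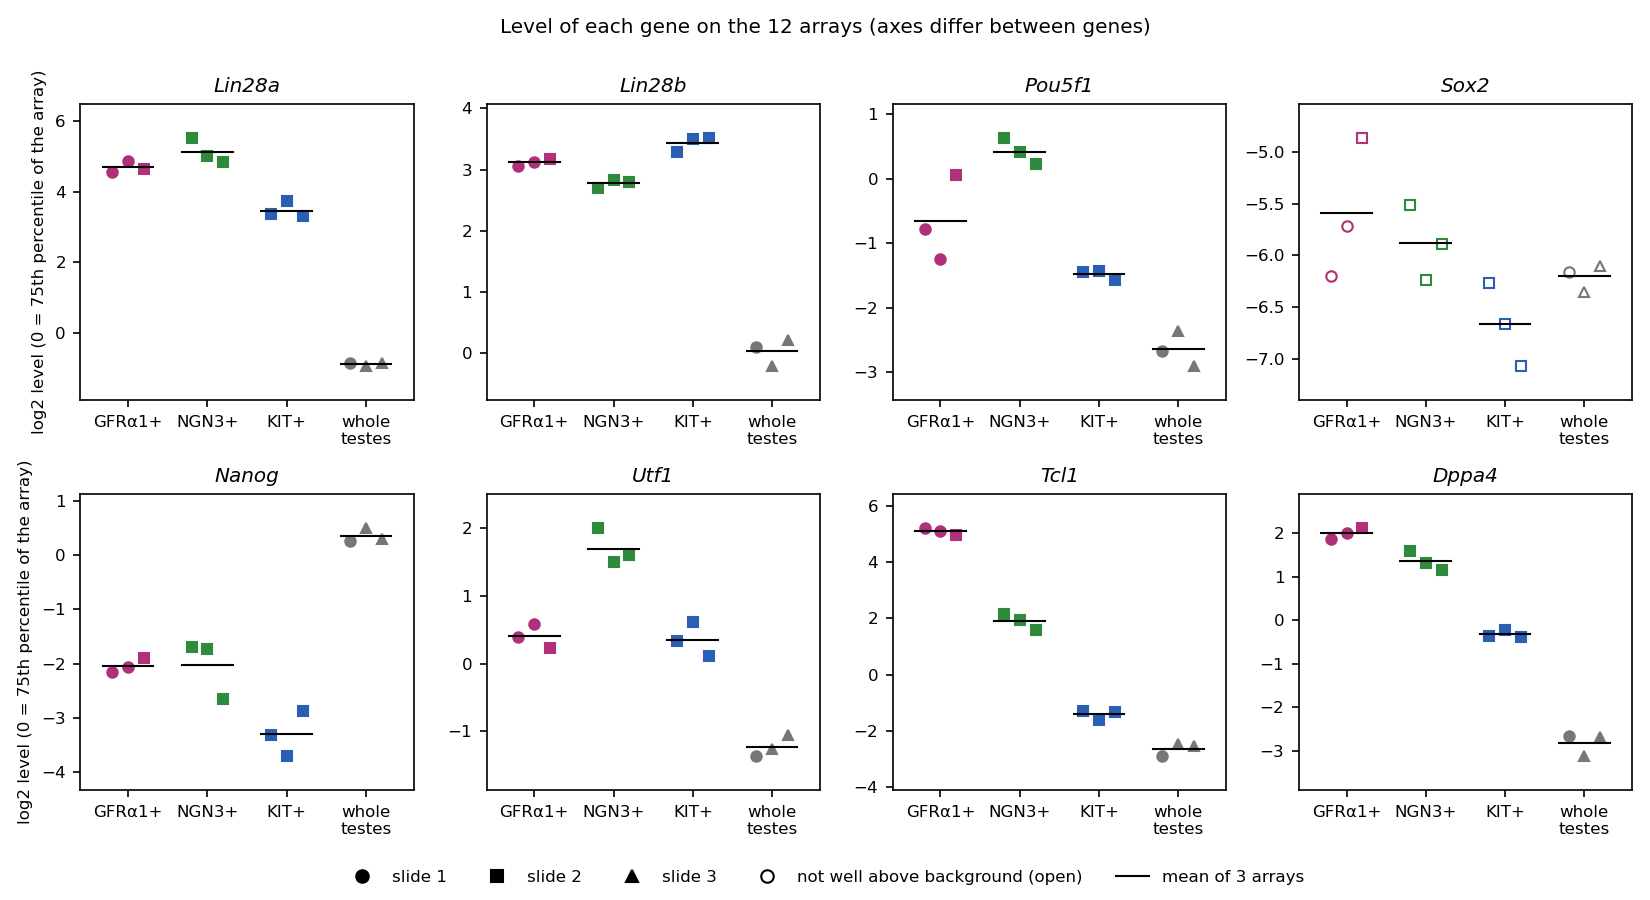
Log2 level of each gene (vertical axis, 0 is the 75th percentile of the array) on the 3 arrays of each group, from GFRα1+ through NGN3+ and KIT+ cells to whole testes. Point shape marks the slide, open points were not well above background, and the bar is the mean of 3 arrays. Tcl1 falls stepwise to −1.41 in KIT+ cells, Sox2 is open on all 12 arrays, and the single GFRα1+ array on the second slide stands above the other GFRα1+ arrays for Pou5f1.

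Between NGN3+ and GFRα1+ cells, 2 members were called higher, Pou5f1 and Utf1, and 3 lower, Lin28b, Tcl1 and Dppa4, where 20.0% of the 23796 genes tested were higher and 36.4% lower with a median log2 ratio of −0.19. Between KIT+ and NGN3+ cells, 1 member was higher, Lin28b, and the other 6 tested were lower, where 17.5% of the 24115 genes tested were higher and 17.0% lower with a median of 0.05. Markers of other cells fell at that step too, 5 of 8 peritubular myoid (median −1.45) and 4 of 7 endothelial (median −1.36) with 0 higher in either list, while of 18 Sertoli markers 1 was higher and 3 lower and of 24 spermatid markers 0 were called. Their part in the members' differences was not tested. Between KIT+ and GFRα1+ cells, Lin28b was higher, 5 were lower and Utf1 was not called, where 26.6% of 23006 genes were higher and 39.5% lower with a median of −0.16. A call in either direction was therefore the common outcome among all genes when GFRα1+ cells were compared (56.4% against NGN3+ and 66.1% against KIT+) and less common between KIT+ and NGN3+ cells (34.5%).

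**Figure D2:**
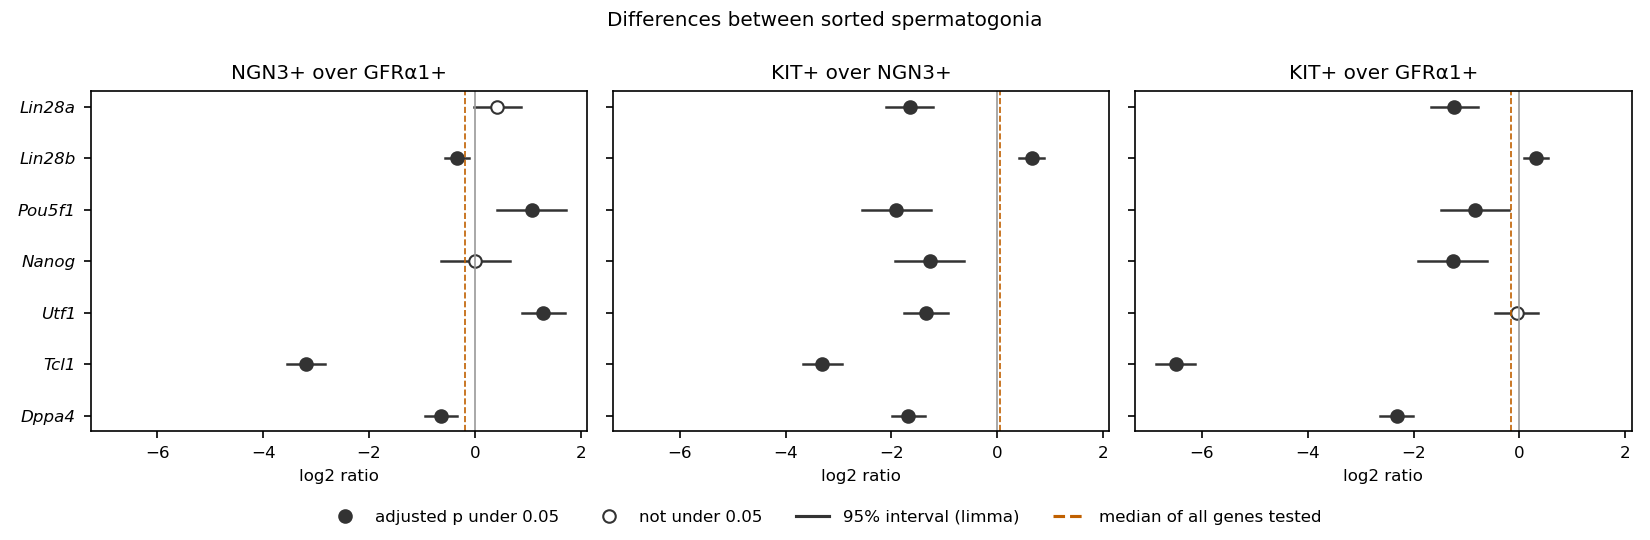
Log2 ratio of the 7 genes tested (horizontal axis) in NGN3+ over GFRα1+, KIT+ over NGN3+ and KIT+ over GFRα1+ spermatogonia. Points are limma estimates with 95% intervals, filled where the adjusted p was under 0.05, and the dashed line is the median of all genes tested. Tcl1 lies at −3.19, −3.31 and −6.50, and Lin28b is the one gene right of 0 in both comparisons of KIT+ cells.

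Tcl1 had the widest range of group means among the 7 tested genes. Its probe lies at chr12:106454973-106455032 (mm9, minus strand) and holds the letters of the polyadenylation signal, AATAAA. Levels were 5.21, 5.10 and 4.97 on the GFRα1+ arrays, 2.17, 1.93 and 1.61 on the NGN3+ arrays, −1.30, −1.61 and −1.32 on the KIT+ arrays, and −2.89, −2.48 and −2.53 on the whole testes arrays. All 4 groups were separate from each other, in that order. NGN3+ cells were 9.14-fold lower than GFRα1+ cells (log2 ratio −3.19, SE 0.16, adjusted p = 2.14e-06), and KIT+ cells were 9.91-fold lower than NGN3+ cells (−3.31, SE 0.16, adjusted p = 1.36e-05). Over both steps KIT+ cells were 90.6-fold lower than GFRα1+ cells (−6.50, adjusted p = 1.32e-07), and its ratio ranked 5 from the lowest of the 23006 genes tested. With normexp that ratio was −5.75 (adjusted p = 3.78e-09). On the second slide alone, which held GFRα1+ replicate 3, the log2 ratio was −3.07 for NGN3+ and −6.38 for KIT+ cells over it. Tcl1 thus changed by nearly as much within a slide.

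Among the other members of the TCL1 family and the AKT kinases the changes were smaller. Of 9 such genes 6 were tested between NGN3+ and GFRα1+ cells, 1 rose, 2 fell and 3 were not called (median −0.18), where 20.0% of all genes were higher and 36.4% lower (median −0.19). Akt1, which encodes a kinase that TCL1 binds, averaged 4.62 ± 0.14 in NGN3+ and 4.17 ± 0.08 in GFRα1+ cells (log2 ratio 0.46, adjusted p = 0.0121), and KIT+ cells were higher again at 5.01 ± 0.16 (0.38 over NGN3+, adjusted p = 0.0396). Mtcp1, a TCL1 relative, averaged −3.03 ± 0.12 in NGN3+ and −2.52 ± 0.18 in GFRα1+ cells (−0.51, adjusted p = 0.0164). Of the mouse Tcl1b genes, which lie beside Tcl1, Tcl1b2 was well above background on all 3 NGN3+ arrays and on none of the KIT+ arrays, at least 1.93-fold lower in KIT+ cells (adjusted p = 0.0311).

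Dppa4, which encodes a DNA-binding partner of DPPA2, followed the same order as Tcl1 with smaller steps. Its levels were 1.86, 2.0 and 2.11 on the GFRα1+ arrays, 1.60, 1.31 and 1.15 on the NGN3+ arrays, −0.36, −0.23 and −0.39 on the KIT+ arrays, and −2.65, −3.11 and −2.67 on the whole testes arrays. No 2 groups overlapped. NGN3+ cells were 1.56-fold lower than GFRα1+ cells (log2 ratio −0.64, SE 0.14, adjusted p = 0.00417), and KIT+ cells were 3.20-fold lower than NGN3+ cells (−1.68, SE 0.14, adjusted p = 6.21e-05) and 4.99-fold lower than GFRα1+ cells (−2.32, adjusted p = 1.39e-06). The probe used lies at chr16:48291368-48291427 (mm9, plus strand). Its sequence is shown with those of Pou5f1 and the dimmer Lin28b probe, because the calls on these 3 genes differed between probes or slides, and each has at least 1 reading frame with no stop and no AATAAA.
Dppa4 probe: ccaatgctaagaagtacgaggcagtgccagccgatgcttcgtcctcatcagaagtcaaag
Pou5f1 probe: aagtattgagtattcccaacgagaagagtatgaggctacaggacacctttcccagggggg
Lin28b probe: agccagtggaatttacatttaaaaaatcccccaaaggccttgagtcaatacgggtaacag
Both other Dppa4 probes gave the same order of the groups. The first, at chr16:48293216-48293867, averaged 1.87 in GFRα1+, 1.11 in NGN3+ and −0.50 in KIT+ cells, and the second, at chr16:48294346-48294405, −2.65, −3.43 and −3.88 in the same order. Tested among all probes, both were lower in NGN3+ cells than in GFRα1+ cells (adjusted p = 0.00206 and 0.0035), and the second missed the threshold between KIT+ and NGN3+ cells (log2 ratio −0.45, adjusted p = 0.0585). The Dppa4 probes therefore differed in how far the level dropped at the second step. The second of the other probes was dim, with intensities of 37.8 to 43.4 on the KIT+ arrays against 468 to 492 for the probe used. It was not well above background on any whole testes array. Whether its smaller drop came from its dimness was not tested.

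Of the other 4 DPPA genes measured, Dppa2 averaged −2.57 ± 0.23 in NGN3+ and −2.46 ± 0.21 in GFRα1+ cells and was not well above background on any KIT+ array, at least 5.46-fold lower in KIT+ than in NGN3+ cells (adjusted p = 1.84e-05). Dppa3 averaged −2.40 ± 0.32 in NGN3+ and −3.35 ± 0.44 in GFRα1+ cells (adjusted p = 0.0226), and Dppa5a, which encodes an RNA-binding protein of embryonic stem cells, was lower in NGN3+ (2.38 ± 0.10) than in GFRα1+ cells (3.11 ± 0.07, adjusted p = 0.00323) and higher in KIT+ (2.87 ± 0.29) than in NGN3+ cells (adjusted p = 0.0324). Dppa1 was not well above background on any array. Dppa2 and Dppa4, whose proteins form a complex, were thus both lower in KIT+ than in NGN3+ cells.

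Pou5f1, the gene for the POU-domain factor OCT4, had its highest levels in NGN3+ cells. The probe, printed above, aligns over chr17:35647280-35647340 (mm9, plus strand). Levels were −0.78, −1.24 and 0.06 on the GFRα1+ arrays, 0.63, 0.41 and 0.22 on the NGN3+ arrays, −1.45, −1.43 and −1.57 on the KIT+ arrays, and −2.67, −2.37 and −2.90 on the whole testes arrays. The groups did not overlap, but GFRα1+ replicate 3 came close to the lowest NGN3+ array and lay above the other GFRα1+ arrays. KIT+ cells were 3.74-fold lower than NGN3+ cells (log2 ratio −1.90, SE 0.29, adjusted p = 0.00118), a comparison in which all arrays were on 1 slide. NGN3+ cells were 2.10-fold higher than GFRα1+ cells (1.07, SE 0.29, adjusted p = 0.012). That call was lost when slides were held apart: within the second slide the ratio was 0.36 (adjusted p = 0.172, and 0.221 with slide as a block), and GFRα1+ replicate 3 was the array that shared the slide. KIT+ over GFRα1+ was −0.83 (adjusted p = 0.0284), and −1.54 within the second slide. The smaller ratio was lost when any KIT+ array was left out (adjusted p = 0.0619, 0.0613 and 0.0771 without KIT+ replicates 1, 2 and 3) and was −0.48 without GFRα1+ replicate 3. Processed copies of Pou5f1 exist in the mouse genome, and whether the probe also binds their RNA was not tested.

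Of 14 other POU genes, 10 were tested between NGN3+ and GFRα1+ cells, and 3 rose, 3 fell and 4 were not called (median 0.49), where 20.0% of all genes were higher and 36.4% lower. Pou4f1, a POU factor best known from sensory neurons, averaged 1.67 ± 0.05 in NGN3+ and 0.65 ± 0.11 in GFRα1+ cells (adjusted p = 0.000101) and was higher again in KIT+ cells, at 2.22 ± 0.14 (adjusted p = 0.00509 over NGN3+). Pou3f1, a GDNF-responsive factor of spermatogonia, averaged 2.89 ± 0.15 in NGN3+ and 3.59 ± 0.15 in GFRα1+ cells (adjusted p = 0.00222). Pou1f1, the pituitary factor, averaged 2.32 ± 0.26 in NGN3+ and 3.31 ± 0.35 in GFRα1+ cells (adjusted p = 0.00331). Pou2f2 fell to −2.62 ± 0.17 in KIT+ cells, against −0.996 ± 0.23 in NGN3+ cells (adjusted p = 0.00016), and Pou3f2 was at least 3.65-fold lower in KIT+ than in NGN3+ cells (adjusted p = 0.00495). Between KIT+ and NGN3+ cells 2 of 9 rose and 3 fell (median −0.45), where 17.5% of all genes were higher and 17.0% lower.

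Sox2, which encodes the usual DNA-binding partner of OCT4, was not well above background on any of the 12 arrays. Its values, −6.19, −5.72 and −4.87 in GFRα1+, −5.52, −6.24 and −5.89 in NGN3+, −6.26, −6.66 and −7.06 in KIT+ cells and −6.16, −6.35 and −6.10 in whole testes, lay near or below the dimmest probes that were well above background (−6.0 to −4.08, depending on the array). No ratio is given. The probe is 1 position on the transcript, at chr3:34550773-34550832 (mm9, plus strand), and a level too low for it cannot be told apart from no transcript.

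Nanog, the homeodomain gene of the core pluripotency network, was the only tested member that was lower in every sorted fraction than in whole testes. Its brighter probe, at chr6:122663676-122663735 (mm9, plus strand), read −2.15, −2.06 and −1.89 on the GFRα1+ arrays, −1.70, −1.73 and −2.65 on the NGN3+ arrays, −3.32, −3.69 and −2.88 on the KIT+ arrays, and 0.26, 0.50 and 0.30 on the whole testes arrays. GFRα1+ and NGN3+ arrays overlapped, NGN3+ replicate 3 came close to the KIT+ arrays, and whole testes stood apart above all. NGN3+ over GFRα1+ was 0.01 (95% interval −0.64 to 0.66, adjusted p = 0.984). KIT+ cells were 2.41-fold lower than NGN3+ cells (log2 ratio −1.27, SE 0.29, adjusted p = 0.00886) and 2.40-fold lower than GFRα1+ cells (−1.26, SE 0.28, adjusted p = 0.00383). With normexp these ratios were −0.64 for KIT+ over NGN3+ (adjusted p = 0.0136) and −0.61 for KIT+ over GFRα1+ (adjusted p = 0.0102), and by the methods' t-test KIT+ over NGN3+ was not called (adjusted p = 0.0845). Against whole testes, the brighter probe was 5.22-fold lower in GFRα1+, 5.20-fold lower in NGN3+ and 12.5-fold lower in KIT+ cells (adjusted p = 4.15e-06, 6.02e-06 and 1.6e-07). Whole testes shared no slide with NGN3+ or KIT+ arrays. Within the first slide GFRα1+ over whole testes was −2.36. With normexp the log2 ratio to whole testes shrank from −2.38 to −1.77 in NGN3+ and from −3.65 to −2.42 in KIT+ cells. Both calls were kept. Spermatid markers were lower than in whole testes too, all 24 in GFRα1+ and NGN3+ cells and 23 of them in KIT+ cells. The meiosis list was mixed. Of its 16 markers, 9, 10 and 10 were lower and 6, 5 and 6 higher in GFRα1+, NGN3+ and KIT+ cells. Among all genes tested, 37.5%, 39.6% and 41.6% were lower in the same order. Somatic and blood markers were lower as well, for GFRα1+ cells 17 of 18 tested Sertoli, 6 of 7 Leydig, 7 of 8 peritubular myoid, 5 of 9 endothelial, 8 of 10 macrophage and leukocyte and 4 of 4 red blood cell markers. The part of any of these cell types in the Nanog difference was not tested.

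The other Nanog probe, at chr6:122664590-122664649, did not share this pattern. It was well above background on all 3 NGN3+ arrays (−4.74, −4.31 and −4.84) and on KIT+ replicate 3 (−4.70), and not on the GFRα1+ arrays (−6.28, −5.07 and −4.92) or the whole testes arrays (−6.28, −4.66 and −6.66). Against whole testes it was at least 1.03-fold higher in NGN3+ cells (adjusted p = 0.0453 among all probes). In GFRα1+ and KIT+ cells over whole testes it was not tested, being dim in both groups, and whole testes replicate 2 read above NGN3+ replicates 1 and 3. In NGN3+ over whole testes, the one such comparison that both probes allowed, their directions differed. With the mean of both probes, Nanog was no longer called in NGN3+ over whole testes (log2 ratio −0.57, adjusted p = 0.131) or in KIT+ over GFRα1+ cells (−0.47, adjusted p = 0.173). Processed copies of Nanog are also known in the mouse genome, and their RNA was not told apart here.

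**Figure D3:**
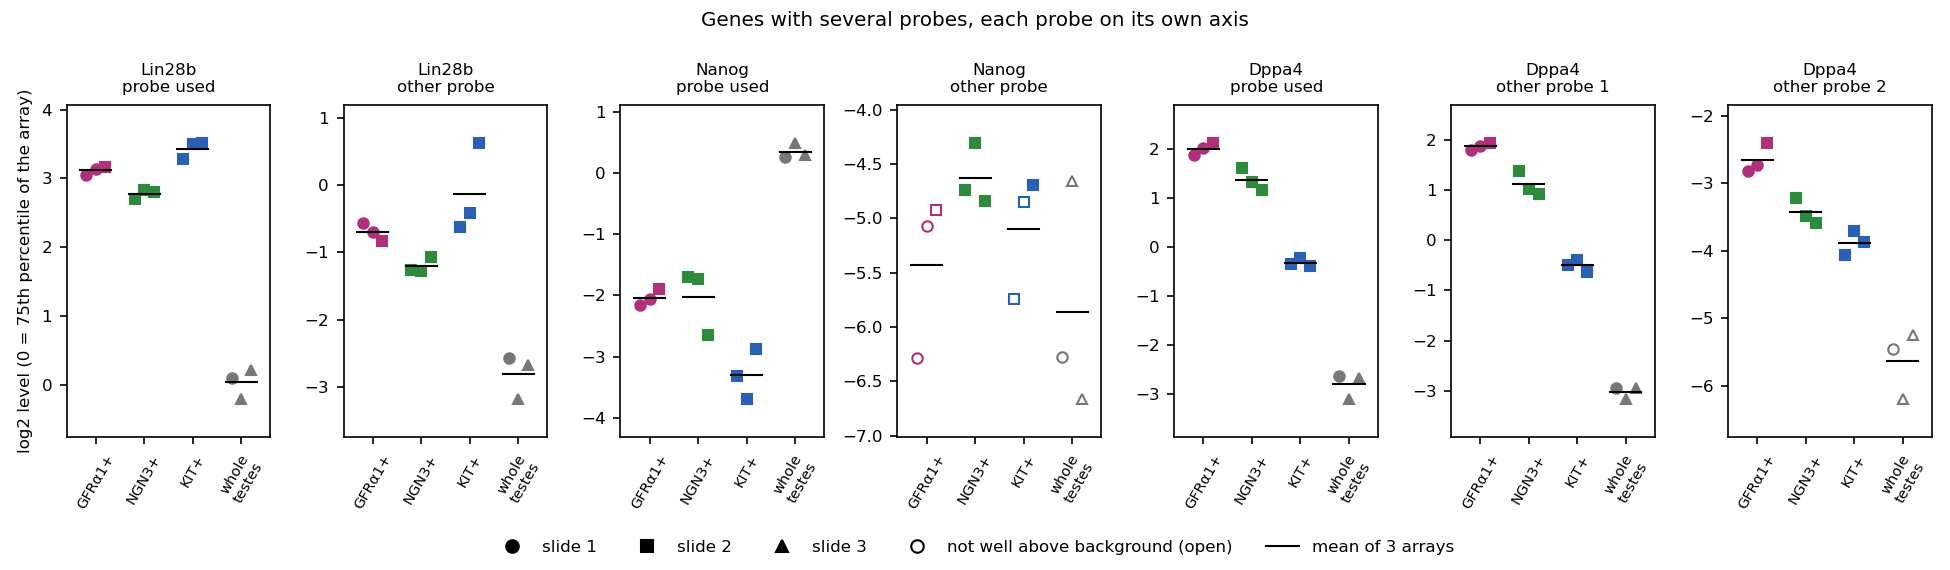
Log2 level (vertical axis, 0 is the 75th percentile of the array) of each probe of Lin28b, Nanog and Dppa4 on the 12 arrays, by group. Point shape marks the slide, open points were not well above background, and the bar is the mean of 3 arrays. The Nanog probe used is highest in whole testes, while the other Nanog probe is filled on all 3 NGN3+ arrays and open on every whole testes array.

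The site at which OCT4 and SOX2 bind side by side in embryonic stem cells can be read in the Nanog promoter, and the octamer alone in that of Sox2. The windows below are from RefSeq (GRCm38.p6, plus strand), at chr6:122707392-122707449 for Nanog and chr3:34649874-34649924 for Sox2, and capitals mark the motif.
Nanog promoter: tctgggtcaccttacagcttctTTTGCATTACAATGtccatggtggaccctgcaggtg
Sox2 promoter: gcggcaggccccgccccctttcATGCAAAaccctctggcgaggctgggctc
Promoter windows of 300 bases around a start site were at hand for 7 of the 8 genes. The octamer ATGCAAA was in the promoters of Nanog and Sox2 and in 4.63% of 32851 promoters, searched on both strands. The SOX motif ACAATG was in those of Lin28a, Nanog and Pou5f1 and in 12.6% of all. The joined form TTTGCATNACAATG, which contains both, was in 2 of the 32851 windows, and Nanog was the only member that had it. Of the 2 factors, Pou5f1 RNA was measured in every fraction and Sox2 RNA was not well above background in any. A match of letters is not a bound site.

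Utf1, a gene that OCT4 and SOX2 are known to regulate in embryonic stem cells, was the second member called higher in NGN3+ than in GFRα1+ cells. Its probe lies at chr7:147130950-147131009 (mm9, plus strand) and holds AATAAA. Levels were 0.39, 0.58 and 0.23 on the GFRα1+ arrays, 2.0, 1.49 and 1.60 on the NGN3+ arrays, 0.33, 0.61 and 0.12 on the KIT+ arrays, and −1.36, −1.26 and −1.05 on the whole testes arrays. The NGN3+ arrays lay above all others, and GFRα1+ and KIT+ arrays overlapped. NGN3+ cells were 2.46-fold higher than GFRα1+ cells (log2 ratio 1.30, SE 0.18, adjusted p = 0.000425), and KIT+ cells 2.54-fold lower than NGN3+ cells (−1.34, SE 0.18, adjusted p = 0.000666). The net difference, KIT+ over GFRα1+, was −0.05 (95% interval −0.45 to 0.36, adjusted p = 0.83). Within the second slide NGN3+ over GFRα1+ was 1.47. Unlike Pou5f1, Utf1 therefore kept its NGN3+ peak when the slide was held constant.

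The LIN28 pair moved in opposite directions between NGN3+ and KIT+ cells. The Lin28a probe lies at chr4:133559245-133559304 (mm9, minus strand) and holds AATAAA. Lin28a levels were 4.57, 4.86 and 4.63 on the GFRα1+ arrays, 5.51, 5.0 and 4.83 on the NGN3+ arrays, 3.36, 3.72 and 3.30 on the KIT+ arrays, and −0.86, −0.94 and −0.85 on the whole testes arrays. GFRα1+ and NGN3+ arrays overlapped, KIT+ arrays lay below both, and whole testes far below. KIT+ cells were 3.14-fold lower than NGN3+ cells (log2 ratio −1.65, SE 0.20, adjusted p = 0.000378) and 2.34-fold lower than GFRα1+ cells (−1.23, SE 0.20, adjusted p = 0.000546). NGN3+ over GFRα1+ was 0.42 (95% interval −0.02 to 0.87, adjusted p = 0.0953), and it passed the threshold with quantile normalization (0.70, adjusted p = 0.00772), with another percentile (0.59, adjusted p = 0.0235) and with another background correction, normexp (0.55, adjusted p = 0.0123).

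Lin28b levels were 3.05, 3.13 and 3.17 on the GFRα1+ arrays, 2.70, 2.83 and 2.80 on the NGN3+ arrays, 3.29, 3.49 and 3.51 on the KIT+ arrays, and 0.10, −0.21 and 0.21 on the whole testes arrays, at chr10:45096468-45096527 (mm9, minus strand). The groups did not overlap, and the spread within each was small, so KIT+ cells were highest and NGN3+ cells lowest of the fractions. KIT+ cells were 1.57-fold higher than NGN3+ cells (log2 ratio 0.65, SE 0.10, adjusted p = 0.0015), with all arrays of the comparison on 1 slide. The differences from GFRα1+ cells were smaller. NGN3+ over GFRα1+ was −0.34 (SE 0.10, adjusted p = 0.0208) and lost its call with quantile normalization (−0.15, adjusted p = 0.215), within the second slide (−0.39, adjusted p = 0.0976), without GFRα1+ replicate 2 (adjusted p = 0.0575) and without NGN3+ replicate 1 (adjusted p = 0.054). KIT+ over GFRα1+ was 0.31 (adjusted p = 0.0234), and was lost within the second slide (0.26, adjusted p = 0.212) and without GFRα1+ replicate 1 or 2 or KIT+ replicate 2 or 3 (adjusted p from 0.0548 to 0.0896). The second Lin28b probe, which lies at chr10:45140412-45140471 and is printed above, averaged −0.70 ± 0.14 in GFRα1+, −1.2 ± 0.12 in NGN3+ and −0.14 ± 0.67 in KIT+ cells. It too was higher in KIT+ than in NGN3+ cells (1.06, adjusted p = 0.0205 among all probes), with no call against GFRα1+ cells (NGN3+ −0.50, adjusted p = 0.165, and KIT+ 0.56, adjusted p = 0.112).

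LIN28 proteins bind the loop of let-7 precursors, where the letters GGAG are a known contact, and the mature let-7 miRNAs pair with targets through a shared seed. The sequences are shown because the gene lists that follow concern them. They are from RefSeq (GRCm38.p6), with bases 2 to 8 in capitals for the mature forms and GGAG in capitals for the hairpin at chr9:106178840-106178927.
let-7a-5p: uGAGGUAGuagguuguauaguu
let-7d-5p: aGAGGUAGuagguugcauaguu
let-7g-5p: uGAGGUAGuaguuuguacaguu
let-7j: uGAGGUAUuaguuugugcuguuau
let-7g hairpin: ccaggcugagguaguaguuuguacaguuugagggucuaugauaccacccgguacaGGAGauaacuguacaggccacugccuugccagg
Of 10 mature let-7 sequences from the 5′ arm or with no arm named, 9 shared the seed GAGGUAG, and let-7j differed. Searched anywhere in the hairpin, GGAG was in 9 of 11 let-7 hairpins and in 44.5% of 1005 miRNA hairpins. Whether it lay in the loop was not examined. Mature miRNAs were not measured on these arrays.

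Among 13 partners of LIN28 and enzymes of let-7 processing, all measured, 1 rose and 6 fell between NGN3+ and GFRα1+ cells (median −0.30, against −0.19, 20.0% higher and 36.4% lower over all genes), and 3 rose and 4 fell between KIT+ and NGN3+ cells (median 0.01, against 0.05, 17.5% higher and 17.0% lower over all genes). Msi2, an RNA-binding protein of stem cells, had the largest change of the 13 between KIT+ and NGN3+ cells and averaged 3.24 ± 0.07 in GFRα1+, 2.51 ± 0.20 in NGN3+ and 0.89 ± 0.04 in KIT+ cells (adjusted p = 0.001 for NGN3+ over GFRα1+ and 4.08e-05 for KIT+ over NGN3+). Tut7, one of the enzymes that add uridines to let-7 precursors, averaged 0.30 ± 0.08 in NGN3+ and 1.19 ± 0.14 in GFRα1+ cells (adjusted p = 0.000228), and Drosha, which cuts primary miRNAs, 5.04 ± 0.10 and 5.71 ± 0.11 in NGN3+ and GFRα1+ cells (adjusted p = 0.00148). Dicer1, which cuts the precursors, was lower in KIT+ (−0.73 ± 0.07) than in NGN3+ cells (0.36 ± 0.15, adjusted p = 0.00048). Trim71, itself a let-7 target in other tissues, was lower in KIT+ (3.68 ± 0.18) than in NGN3+ cells (4.61 ± 0.18, adjusted p = 0.000892).

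Of 26 genes described as let-7 targets, 25 were tested between NGN3+ and GFRα1+ cells, of which 2 rose and 12 fell (median −0.38, against −0.19, 20.0% higher and 36.4% lower over all genes), and 23 between KIT+ and NGN3+ cells, of which 8 rose and 9 fell (median −0.24, against 0.05, 17.5% higher and 17.0% lower over all genes). The cyclin gene Ccnd2 was lower in NGN3+ (3.15 ± 0.19) than in GFRα1+ cells (5.45 ± 0.11, adjusted p = 7.82e-06). Ccnd1 was lower in NGN3+ (2.17 ± 0.15) than in GFRα1+ cells (3.14 ± 0.11, adjusted p = 0.000197) and higher in KIT+ (3.55 ± 0.10) than in NGN3+ cells (adjusted p = 7.4e-05), an order of the 3 fractions that Lin28b shared. Igf2bp2, an RNA-binding protein, and Irs2, an adaptor of the insulin receptor, differed at the second step: Igf2bp2 fell to −2.29 ± 0.24 in KIT+ cells, against 0.57 ± 0.28 in NGN3+ cells (adjusted p = 3.71e-05), and Irs2 to −0.20 ± 0.22 in KIT+ cells, against 2.25 ± 0.32 in NGN3+ cells (adjusted p = 0.000101).

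In a wider list of 40 genes of the pluripotency network, 37 were tested between NGN3+ and GFRα1+ cells, of which 6 rose and 16 fell (median −0.24), where 20.0% of all genes were higher and 36.4% lower (median −0.19). Between KIT+ and NGN3+ cells 38 were tested, of which 7 rose and 17 fell (median −0.30), where 17.5% of all genes were higher and 17.0% lower (median 0.05). Zfp42, which encodes REX1, a zinc finger protein of naive embryonic stem cells, stepped down like Dppa4, with 1.75 ± 0.13 in GFRα1+, 0.63 ± 0.10 in NGN3+ and −0.24 ± 0.08 in KIT+ cells (adjusted p = 5.4e-05 for NGN3+ over GFRα1+ and 0.000488 for KIT+ over NGN3+). Nr5a2, a nuclear receptor that acts upstream of Pou5f1 in embryonic stem cells, averaged 1.2 ± 0.23 in GFRα1+, 0.32 ± 0.26 in NGN3+ and −1.71 ± 0.15 in KIT+ cells (adjusted p = 0.00234 and 6.79e-05 for the same steps). Lifr, the receptor for the cytokine LIF, was likewise lower in KIT+ (−0.61 ± 0.11) than in NGN3+ cells (0.96 ± 0.20, adjusted p = 6.79e-05).

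Prdm14 and Tfap2c had their highest means in NGN3+ cells. Prdm14 was well above background on all 3 NGN3+ arrays (mean −2.96 ± 0.28), on no GFRα1+ array and on 1 KIT+ array, at least 2.62-fold higher in NGN3+ cells than in GFRα1+ cells (adjusted p = 9.37e-05) and at least 3.88-fold lower in KIT+ than in NGN3+ cells (adjusted p = 0.000174). Tfap2c averaged 1.05 ± 0.32 in NGN3+ and −0.13 ± 0.16 in GFRα1+ cells (adjusted p = 0.000766), and −1.04 ± 0.19 in KIT+ cells (adjusted p = 8.07e-05 against NGN3+). Prdm14, Tfap2c and Prdm1 encode factors needed for primordial germ cells, and Prdm1, added here after its values were seen, ran otherwise, with −1.90 ± 0.32 in GFRα1+, −2.62 ± 0.33 in NGN3+ and −3.46 ± 0.11 in KIT+ cells (adjusted p = 0.0164 for NGN3+ over GFRα1+ and 0.013 for KIT+ over NGN3+). The adhesion gene Epcam ran the other way and was lowest in NGN3+ cells, at −0.14 ± 0.25 in NGN3+ against 1.16 ± 0.16 in GFRα1+ cells (adjusted p = 0.000109) and 0.96 ± 0.04 in KIT+ cells (adjusted p = 0.000568 for KIT+ over NGN3+).

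**Figure D4:**
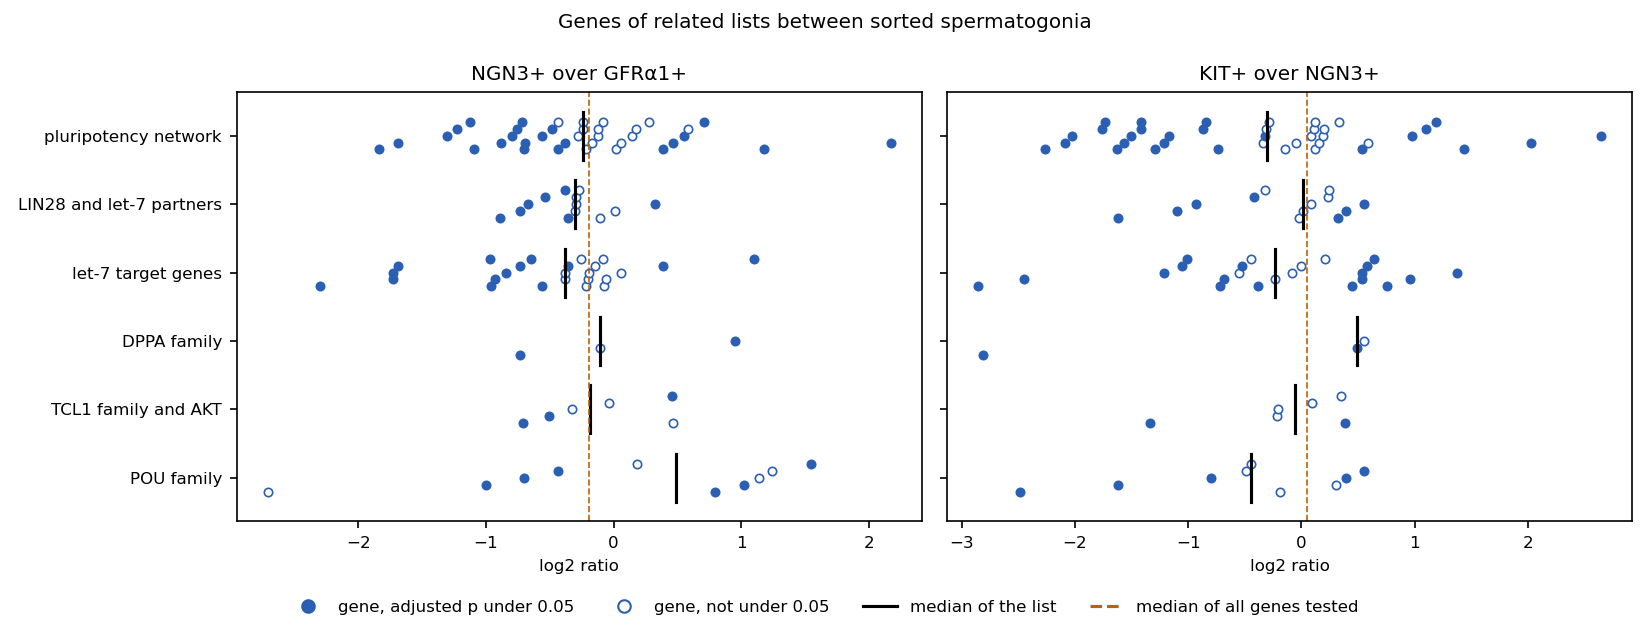
Log2 ratio (horizontal axis) of every tested gene of 6 lists, in NGN3+ over GFRα1+ and in KIT+ over NGN3+ spermatogonia; the members themselves are not in the lists. Filled points had an adjusted p under 0.05, black bars are list medians and the dashed line is the median of all genes tested. Rises and falls stand side by side in the lists, and the median of the pluripotency network lies at −0.30 in KIT+ over NGN3+.

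Against whole testes, 6 of the 7 genes tested were higher in each sorted fraction and Nanog was lower. Among all genes 49.9%, 44.1% and 43.3% were higher and 37.5%, 39.6% and 41.6% lower in GFRα1+, NGN3+ and KIT+ cells, with 87.5%, 83.7% and 84.9% called either way, so the sizes say more than the count. No slide held whole testes arrays together with NGN3+ or KIT+ arrays. The ratios of NGN3+ and KIT+ cells to whole testes thus lie wholly between slides, where group and slide cannot be told apart directly. With slide as a block, these groups are joined only through the GFRα1+ arrays. Tcl1 was 211.5-fold higher in GFRα1+ cells, 23.1-fold in NGN3+ cells and 2.34-fold in KIT+ cells than in whole testes (adjusted p = 8.37e-11, 2.97e-09 and 3.48e-05). Lin28a was 47.6-fold, 63.8-fold and 20.3-fold higher in the same order. Dppa4 was 27.9-fold, 17.9-fold and 5.59-fold higher. Lin28b was 8.50-fold, 6.72-fold and 10.6-fold higher, and Utf1 3.09-fold, 7.57-fold and 2.99-fold. Pou5f1 was 3.98-fold and 8.37-fold higher in GFRα1+ and NGN3+ cells, and 2.24-fold in KIT+ cells (adjusted p = 0.00212). With slide as a block its log2 ratio shrank from 1.16 to 0.12 in KIT+ cells (adjusted p = 0.781). In NGN3+ cells it shrank from 3.07 to 2.03 (adjusted p = 0.00134). With normexp, the ratios of Tcl1, Dppa4 and Pou5f1 to whole testes were smaller and kept their calls. For GFRα1+ and NGN3+ cells the log2 ratios were 6.62 and 3.67 for Tcl1 (7.72 and 4.53 without it). They were 3.71 and 3.12 for Dppa4 (4.80 and 4.16) and 1.27 and 2.18 for Pou5f1 (1.99 and 3.07). Dppa4 in KIT+ cells over whole testes was 1.54 (2.48 without normexp). Nanog in NGN3+ and KIT+ cells shrank as given above. On the first slide alone GFRα1+ replicates 1 and 2 exceeded whole testes replicate 1 by 8.04 for Tcl1, 5.58 for Lin28a, 4.58 for Dppa4, 3.00 for Lin28b, 1.85 for Utf1 and 1.66 for Pou5f1 on the log2 scale.

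**Figure D5:**
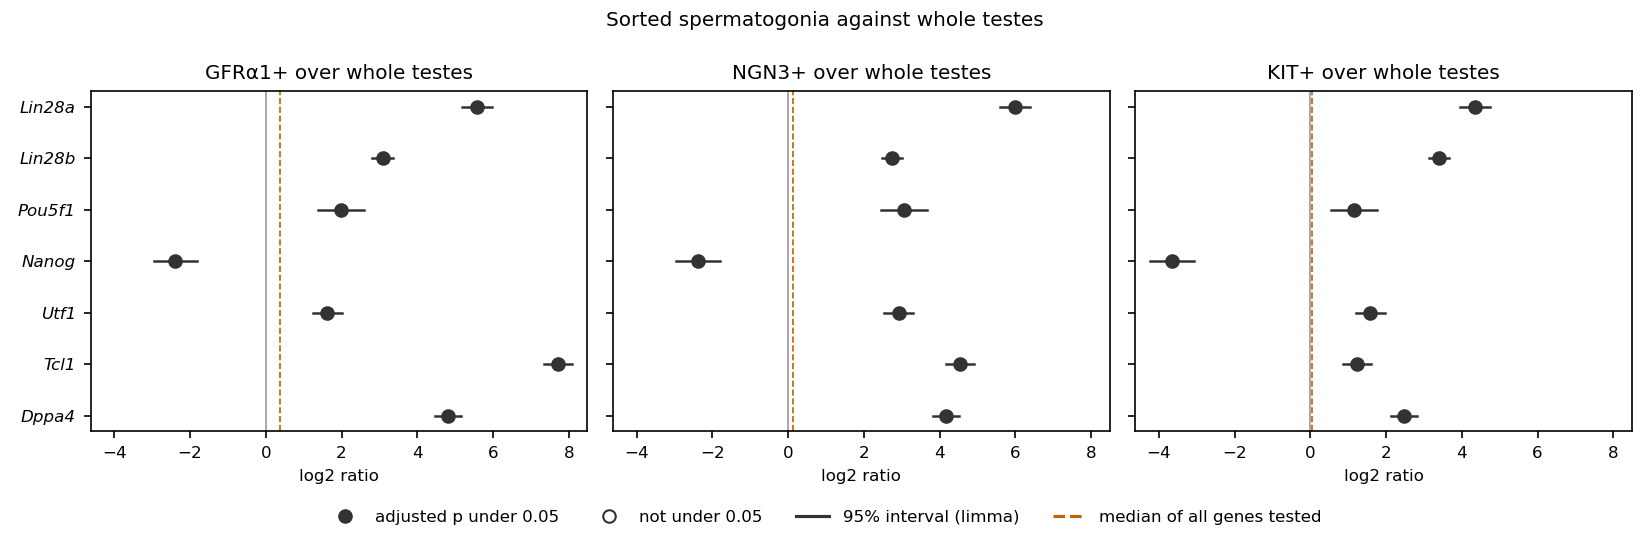
Log2 ratio of the 7 genes tested (horizontal axis) of each sorted fraction over whole testes. Points are limma estimates with 95% intervals, all filled because every adjusted p was under 0.05, and the dashed line is the median of all genes tested. Nanog is the one gene left of 0, at −2.39, −2.38 and −3.65.

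For each gene tested, the 3 genes whose levels over the 12 arrays had the highest Pearson correlation with it were found among 15563 genes with a group range of at least 1 log2 unit. These values are descriptions over 4 groups, and much of each follows from the gap between sorted cells and whole testes. Lin28a was most like Tmco6, Stau1 and Tmtc4 (r = 0.9989, 0.9986 and 0.9984), and Lin28b like Ccndbp1, Slc35c1 and Nipa1 (0.9985, 0.998 and 0.9975). Tcl1 was most like Foxc2, a forkhead factor of early spermatogonia, Slc38a1 and Dhx57 (0.9972, 0.9951 and 0.995). Foxc2 averaged 3.43 in GFRα1+, 0.33 in NGN3+ and −3.0 in KIT+ cells and −4.16 in whole testes, steps of about the size seen for Tcl1. Dppa4 was most like Chst10, Syn2 and Susd4 (0.9987, 0.9981 and 0.9981), Utf1 like the transcriptional repressor gene Gfi1, Mobp and Tdrd1 (0.987, 0.9858 and 0.9851), and Pou5f1, with the lowest values, like Plpp2, Plekhf1 and Flnc (0.9775, 0.9685 and 0.9665). Nanog was most like 4933427D14Rik, Axl and Igf2bp3 (0.9877, 0.986 and 0.9834). Igf2bp3, which is also in the list of let-7 targets, averaged −0.35 in GFRα1+, −0.30 in NGN3+ and −1.31 in KIT+ cells and 1.25 in whole testes, the same order of groups as the brighter Nanog probe.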

How the data were processed

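RNA of 9 sorted samples and 3 whole testes (25 ng each, from 10000 to 20000 sorted cells or 500000 cells) was hybridised to 1-colour Agilent mouse arrays. The authors extracted spots with Agilent Feature Extraction (10.7.1.1 and 10.7.3.1 per the file headers, 10.7.3.1 in the submitters' processing notes) and deposited the processed signal, a background-subtracted intensity, and a log2 table that equals log2 of that signal minus each array's 75th percentile for at least 99.8% of probes within 0.01, uncentred; its column medians ran from −3.84 to −3.44. The methods name GeneSpring and a t-test.

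From the deposited intensity, log2 minus the array's 75th percentile was computed without control and outlier spots. Probe positions are those of the files (mm9). Gene names were updated through a RefSeq table (GRCm38.p6) (26413 probes matched an accession, 3859 a symbol and 735 a synonym, while 24674 kept their name). The probe with the highest mean stood for its gene. Genes well above background on all 3 arrays of a compared group were tested with limma 3.58.1 (R 4.3.3) and Benjamini-Hochberg adjustment. Comparisons of sorted cells used 9 arrays and those with whole testes 12. "At least" ratios divide the brighter group's mean by a floor for the dimmer group, averaged over its arrays, each at its dimmest probe well above background or at the probe's own value if that was higher. Members, lists and tests were chosen with earlier results of these data known. All members with every probe are named, with the 3 list genes of smallest adjusted p per step, the 3 genes most like each member, and 3 sort markers, except list genes that are not reported here; Dppa1, Igf2bp3 and Foxc2 levels are given as members of those sets. Exact tests of 3 against 3 arrays cannot go below p = 0.1. Samples of each cell type were of different animals. The fits were also run on simulated arrays with independent noise and no slide effect, so that run could not show effects of slide.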

Additional observations from a re-analysis of the deposited data

How the results depend on the processing

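The alternatives covered scaling, background correction, filters, probe choice, slide, fit and test, and each array left out. Of the values of single members under them, 832 kept their direction and side of the threshold, 26 lost a call, 3 gained one and 0 changed the sign of a call. For NGN3+ over GFRα1+, 3 members in place of 5 were called with slide as a block, because Lin28b and Pou5f1 dropped out. Calls over all 23796 genes dropped as well, to 3689 higher and 5616 lower, against 4768 and 8657. With arrays left out one at a time, 4 to 5 members were called for NGN3+ over GFRα1+, 7 for KIT+ over NGN3+, 4 to 6 for KIT+ over GFRα1+, and 7 for each comparison with whole testes. With all arrays, 56.4%, 34.5% and 66.1% of all genes were called either way in the comparisons of sorted cells, in that order. The shares against whole testes were 87.5%, 83.7% and 84.9% for GFRα1+, NGN3+ and KIT+ cells. By the methods' t-test on the same values, Pou5f1 in NGN3+ over GFRα1+ (adjusted p = 0.0964), Pou5f1 in KIT+ over GFRα1+ (0.135) and Nanog in KIT+ over NGN3+ (0.0845) were not called.

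The samples of each cell type came from different animals. Whether NGN3+ and KIT+ samples shared mice is not stated in the methods. Deviations of same-numbered arrays from their group means correlated at −0.53 to 0.26, which cannot settle it. With the replicate number as a block the calls of members stayed at 5, 7 and 6 for NGN3+ over GFRα1+, KIT+ over NGN3+ and KIT+ over GFRα1+. Over all genes, 4601, 3501 and 5904 were higher and 7846, 3631 and 8554 lower under that block. Scaling each array by the 75th percentile of those probes alone that were well above background throughout moved the median of all genes by 0.17 in NGN3+ over GFRα1+, by 0.13 in KIT+ over GFRα1+, and by −0.40, −0.22 and −0.27 in GFRα1+, NGN3+ and KIT+ cells over whole testes, and normexp moved that of NGN3+ over GFRα1+ by 0.10. For NGN3+ over GFRα1+ the calls over all genes with that percentile were 5840 higher and 6090 lower, against 4768 and 8657. With normexp they were 5003 and 7515. With only genes well above background on every array, they were 2634 and 8861. Lin28a in NGN3+ over GFRα1+ was 0.59 with the percentile of probes well above background (adjusted p = 0.0235) and 0.55 with normexp, fitted by maximum likelihood (adjusted p = 0.0123). Calls over all genes also moved by over 1.5 times for NGN3+ over GFRα1+ (5616 lower with slide as a block, 5056 on the second slide alone), KIT+ over GFRα1+ (3974 higher, against 6115, with only such genes) and GFRα1+ over whole testes (5095 lower, against 9078).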
